A study of Mus musculus with 67 samples.

Results

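The genes described are 10 UDP-glucuronosyltransferases of mouse liver: Ugt1a1, Ugt1a9, Ugt2a3, Ugt2b1, Ugt2b5, Ugt2b34, Ugt2b35, Ugt2b36, Ugt2b38 and Ugt3a2. They are the rows of those symbols among 45808 gene rows of a deposited expression table. Livers of C57BL/6 mice were collected over 24 h at set Zeitgeber times (ZT, hours after lights on), and polyA RNA was sequenced in 67 libraries. All groups shared an age of 24 weeks and 12 weeks on a high-fat diet, which was offered either ad libitum or only in a restricted daily window. WT liver was sampled every 4 h with 2 libraries per time, 12 ad libitum and 11 time-restricted, since 1 library at ZT12 under restriction is not among the samples used here. The 3 clock mutants had 1 library per time and feeding. Bmal1-liverKO mice, which lack the activator Bmal1 in liver, gave 6 libraries per feeding, sampled every 4 h. Cry1Cry2 double KO mice, which lack both cryptochrome repressors in the whole body, gave 8 per feeding, sampled every 3 h, as did Rev-erb liverdoubleKO mice, which lack both Rev-erb repressors in liver. The labels name neither the Cre driver, nor the hours of the feeding window, nor the sex, and they do not say that libraries came from separate animals, so the p-values below measure the spread between libraries.

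UDP-glucuronosyltransferases (UGTs) are enzymes of the endoplasmic reticulum that join a sugar, mostly glucuronic acid from UDP-glucuronic acid, to bilirubin, steroids, bile acids, drugs and other fat-soluble compounds, so that these can leave in bile or urine. The liver is a main site of this reaction. Genes of the Ugt1a cluster each have a first exon of their own and share the remaining exons, whereas the Ugt2 and Ugt3 members described here each have a full set of exons. Ugt1a1 is the enzyme that conjugates bilirubin, and Ugt1a9 acts mainly on phenols. The Ugt2b enzymes act mainly on steroids and bile acids. Ugt3a2 uses sugars other than glucuronic acid.

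Where the genes lie sets how far their values can be read apart. On the mouse build GRCm38 (GENCODE M21), Ugt1a9 (chr1:88070800-88218997, plus strand) and Ugt1a1 (chr1:88211959-88218997, plus strand) end at the same base. Of the exon bases of Ugt1a1, 913 of 2224 belong to it alone, and for Ugt1a9 it is 879 of 2190. The 7 Ugt2 members lie on chromosome 5 between bases 86889767 and 87424203, with no exon base shared, and Ugt3a2 lies at chr15:9335550-9370955 on the plus strand. Of all windows of 50 bases in their transcripts, 41.7% for Ugt2b5 and 37.4% for Ugt2b38 occur in another gene, mostly in each other, against 0 to 7.01% for the other Ugt2 and Ugt3 members. For Ugt1a1 and Ugt1a9 the share was 58.2% and 62.0%. How the submitters' counting treated reads that fit several genes is not stated in the labels or the processing notes. Values of Ugt1a1, Ugt1a9, Ugt2b5 and Ugt2b38 can hold or lack reads of their relatives.

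Bases before the start site are shown for the members on which the results turn (RefSeq, GRCm38.p6; 9 of the 10 members have an entry, Ugt3a2 does not). The first pair is the 250 bases before Ugt1a1 (chr1:88211709-88211958, plus strand) and Ugt1a9 (chr1:88070529-88070778, plus strand), which differed from WT in all 3 mutants under at least 1 feeding. Capitals mark AGGTCA, the core motif of many nuclear receptors including Rev-erb, on either strand, which is not in the window of Ugt1a1.
Ugt1a1: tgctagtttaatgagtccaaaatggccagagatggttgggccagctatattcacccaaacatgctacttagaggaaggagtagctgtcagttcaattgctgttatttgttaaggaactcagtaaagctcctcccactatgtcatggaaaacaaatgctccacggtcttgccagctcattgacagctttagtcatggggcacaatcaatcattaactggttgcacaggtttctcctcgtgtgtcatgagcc
Ugt1a9: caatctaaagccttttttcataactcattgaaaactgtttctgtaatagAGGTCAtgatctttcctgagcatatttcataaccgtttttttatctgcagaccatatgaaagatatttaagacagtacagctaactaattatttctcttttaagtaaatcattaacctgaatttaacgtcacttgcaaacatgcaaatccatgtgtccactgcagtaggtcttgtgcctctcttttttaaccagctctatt
The next set is the 60 bases before Ugt2b36 (chr5:87092556-87092615), Ugt2b5 (chr5:87140341-87140400) and Ugt2b38 (chr5:87424204-87424263), all on the minus strand, shown because they are alike in sequence while the values of Ugt2b38 differ from those of the other two; capitals again mark AGGTCA.
Ugt2b36: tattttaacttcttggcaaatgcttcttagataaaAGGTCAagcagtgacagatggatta
Ugt2b5: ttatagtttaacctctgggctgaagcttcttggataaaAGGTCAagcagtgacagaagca
Ugt2b38: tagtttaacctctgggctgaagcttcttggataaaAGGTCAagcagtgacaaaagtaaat
A run of 62 bases is the same in the promoters of Ugt2b5 and Ugt2b38, and a run of 22 bases around AGGTCA is the same in all 3. In the 250 bases before the start, AGGTCA occurred in 5 of the 9 members (Ugt1a9, Ugt2b5, Ugt2b35, Ugt2b36 and Ugt2b38), against 14% of 32851 promoters of the same length. The E-box CACGTG, a site of Bmal1 with Clock, occurred in 0 of 9 (6.02% of all), and the D-box TTATGTAA in 1 of 9, Ugt2b1 (0.819% of all). These matches are letters in a window and not measured sites.

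Values are FPKM, reads per length of exon scaled to library depth, as deposited. Recovered sequencing depth was 9.01 to 36.0 M reads (megareads) per library. The median library held 1869 or more recovered reads of each member except Ugt1a9 (a median of 77) and Ugt2b38 (a median of 131). The summed hepatocyte markers ran from 42100 to 103000 FPKM, and kidney markers reached no more than 0.223. Summed pancreas acinar markers had a median of 55.2 and reached 4720 in a WT ad libitum library. The deposited gene totals do not separate deleted exons, and Arntl (Bmal1) at 2.00 to 7.09 FPKM in Bmal1-liverKO, Cry1 at 6.65 to 14.3 in the Cry1Cry2 double KO and Nr1d1 (Rev-erb alpha) at 4.82 to 71.8 in the Rev-erb liverdoubleKO were not at 0, so they do not check the genotypes. The levels of genes rich in G and C moved with library: the slope of log2 level per 10 points of GC was 0.072 to 0.549 in WT ad libitum, -1.12 to 0.166 in WT time-restricted and -0.224 to 0.203 in the mutants. Since the 10 members are AT-rich to middling (39.3 to 47.2% GC), differences are also given after removing each library's trend with GC and gene length, called corrected. In 3 libraries (WT ad libitum ZT16 number 2, WT time-restricted ZT16 number 2 and Cry1Cry2 double KO time-restricted ZT3) recovered reads were over 1.4 times the scaling used for FPKM, and values without them are given where a call changes or a value moves by over 1.5 times.

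In WT liver under ad libitum feeding 3 Ugt2b genes were the most abundant members, per length. Ugt2b36 led at 420 ± 342 FPKM (SD, n = 12), followed by Ugt2b5 at 266 ± 92.0 and Ugt2b1 at 192 ± 61.9. Ugt2b36 ranged from 175 to 1480 FPKM, the highest value coming from ZT16 number 2, and it was above Ugt2b5 in 12 of 12 libraries. Ugt2a3 (149 ± 68.7) and Ugt3a2 (140 ± 21) were not separated, with Ugt2a3 the higher in 7 of 12. Ugt2b34 (114 ± 31.6), Ugt1a1 (73.0 ± 28.8) and Ugt2b35 (48.7 ± 16) followed, Ugt2b34 above Ugt1a1 and Ugt1a1 above Ugt2b35 in 10 of 12 libraries each. Ugt2b38 (7.34 ± 7.47) and Ugt1a9 (3.02 ± 1.63) were the lowest, and Ugt2b38 was the higher of the pair in 8 of 12. Ugt1a values divide reads by the whole length, shared exons included, so their place in this order depends on how shared reads were counted. The sum of the 10 members had a median of 1290 FPKM in WT ad libitum and 2060 in WT time-restricted, 1770 and 2340 in Bmal1-liverKO, 1470 and 1470 in the Cry1Cry2 double KO, and 1540 and 1580 in the Rev-erb liverdoubleKO.

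**Figure D1:**
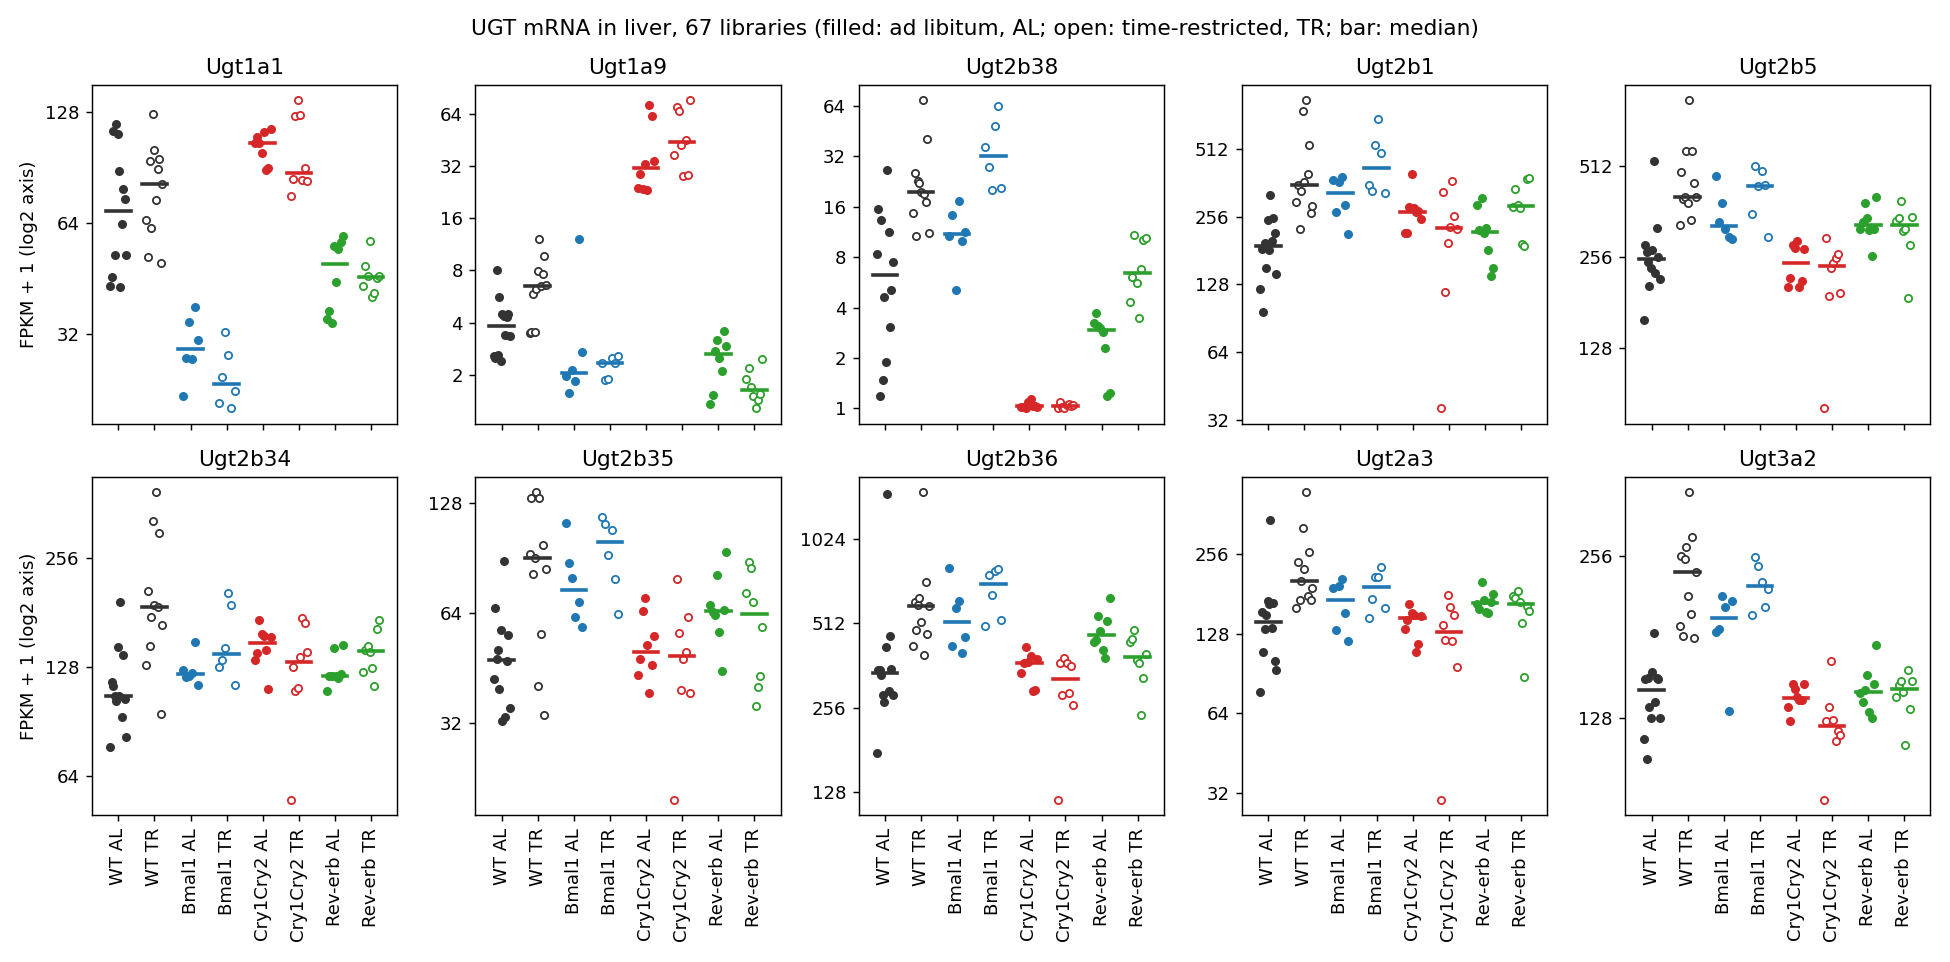
FPKM + 1 (log2 axis) of each of the 10 UGT genes in the 67 libraries, by genotype and feeding; points are libraries, filled for ad libitum (AL) and open for time-restricted (TR), and bars are medians. Ugt1a9 sits at 22.3 to 75.2 FPKM in the Cry1Cry2 double KO, above all other libraries, while Ugt2b38 sits at or below 0.138 there.

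Each mutant was compared with WT under the same feeding, as the difference in 24 h level, with limma and Benjamini-Hochberg adjustment over 9958 genes (adjusted p under 0.05). The 3 mutants share the WT libraries of a feeding. Where groups are said below not to overlap, by genotype or by feeding, the share of all genes that did so was not counted. Such statements describe the members only. Under ad libitum feeding, 3 members were higher in Bmal1-liverKO (14.8% of all genes tested were) and 1 was lower (10.1% were). In the Cry1Cry2 double KO 4 were higher (24.8% of all genes) and 1 lower (30.7%). For the Rev-erb liverdoubleKO none of the 10 was higher (20.8% of all genes) and 3 were lower (23.9%). Under time restriction, Bmal1-liverKO had 0 members higher (27.8% of all genes) and 3 lower (11.3%), the Cry1Cry2 double KO 1 higher (33.7%) and 8 lower (27.8%), and the Rev-erb liverdoubleKO 0 higher (28.3%) and 9 lower (24.2%). After correction for GC and length, the members that differed in either direction were 2 in Bmal1-liverKO (21.4% of all genes), 4 in the Cry1Cry2 double KO (53.5%) and 4 in the Rev-erb liverdoubleKO (44.2%) ad libitum, and 2 (28.5%), 8 (50%) and 4 (44.9%) under restriction. The median difference of the 10 members was largest under restriction, -0.97 in the Cry1Cry2 double KO and -0.61 in the Rev-erb liverdoubleKO on the log2 scale, against medians over all genes of 0.03 and 0.01; corrected, they were -0.41 and -0.15.

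Ugt1a9 was far higher in Cry1Cry2 double KO liver and lower in the other mutants. It ranged from 22.3 to 70.5 FPKM, median 29.9, in the double KO ad libitum, and from 1.42 to 7.02, median 2.84, in WT. Under restriction it ranged from 26.8 to 75.2, median 42.6, against 2.51 to 11.2, median 5.50, in WT. All 16 double KO libraries lay above all 23 WT libraries, and the ratio of mean FPKM was 12.1 ad libitum and 8.50 under restriction. The log2 difference was 3.18 ± 0.22 (SE; limma, adjusted p = 4.56e-16) ad libitum and 2.89 ± 0.23 (adjusted p = 1.84e-14) under restriction, and 3.40 and 3.34 corrected. Within the double KO, the ad libitum libraries at ZT18 and ZT21 reached 70.5 and 61.2 FPKM, while the other 6 lay at 33.0 or below. Under restriction Ugt1a9 was 0.872 to 1.56 FPKM in Bmal1-liverKO and 0.287 to 1.46 in the Rev-erb liverdoubleKO, below every WT library of that feeding. It fell by 1.46 ± 0.25 on the log2 scale in Bmal1-liverKO (limma, adjusted p = 6.16e-06) and by 1.84 ± 0.23 in the Rev-erb liverdoubleKO (adjusted p = 1.14e-08), and by 1.41 and 1.49 corrected.

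Ad libitum, the Ugt1a9 differences in Bmal1-liverKO and Rev-erb liverdoubleKO were smaller. In Bmal1-liverKO 5 of 6 libraries lay between 0.587 and 1.72 FPKM and the ZT20 library at 11.1. The difference from WT was -0.47 (limma, adjusted p = 0.156; -0.48 corrected), and -0.84 (adjusted p = 0.0101) without the ZT20 library. Ugt1a9 in the Rev-erb liverdoubleKO ranged from 0.365 to 2.57 FPKM, overlapping WT, and fell by 0.66 ± 0.22 (limma, adjusted p = 0.0141). That call was lost without the ZT18 library (adjusted p = 0.0510) after correction (-0.50, adjusted p = 0.0797) and against WT libraries of number 2 only (-0.41, adjusted p = 0.148).

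Ugt1a1, the bilirubin enzyme, was lower in Bmal1-liverKO at every time of day. It ranged from 20.7 to 37.0 FPKM, median 28.2, in Bmal1-liverKO ad libitum and from 19.1 to 31.4, median 22.4, under restriction. WT ranged from 41.9 to 118, median 68.0, and from 48.8 to 126, median 81.0, so the groups did not overlap. Ugt1a1 fell by 1.23 ± 0.16 on the log2 scale ad libitum (limma, adjusted p = 7.83e-08) and by 1.71 ± 0.16 under restriction (adjusted p = 1.32e-11), and by 1.20 and 1.69 corrected. The summed hepatocyte markers were also lower in Bmal1-liverKO, at 44200 to 54900 FPKM ad libitum against 64900 to 97600 in WT. Under restriction they were at 42100 to 58500 against 59200 to 91100. In the Rev-erb liverdoubleKO the hepatocyte markers were 58200 to 64200 ad libitum, also below WT, and 56000 to 83000 under restriction, overlapping WT. Their part in the UGT results of these mutants was not tested. In these bulk samples fewer cells of a type and less RNA per cell cannot be told apart. Ugt1a1 in the Rev-erb liverdoubleKO was 33.2 to 58.1 FPKM ad libitum and 39.3 to 56.3 under restriction. Of the 8 libraries of each feeding, 3 lay below every WT library ad libitum and 7 under restriction. It fell by 0.59 ± 0.15 (limma, adjusted p = 0.00123) and by 0.80 ± 0.15 (adjusted p = 2.30e-05); corrected, the differences were -0.41 (adjusted p = 0.103) and -0.50 (adjusted p = 0.0497). In the Cry1Cry2 double KO it was 88.3 to 114 FPKM ad libitum, higher than WT by 0.58 ± 0.15 (limma, adjusted p = 8.96e-04; 0.81 corrected), and 75.0 to 137 under restriction, where the difference was 0.30 (adjusted p = 0.0738) and 0.68 corrected (adjusted p = 0.00740).

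**Figure D2:**
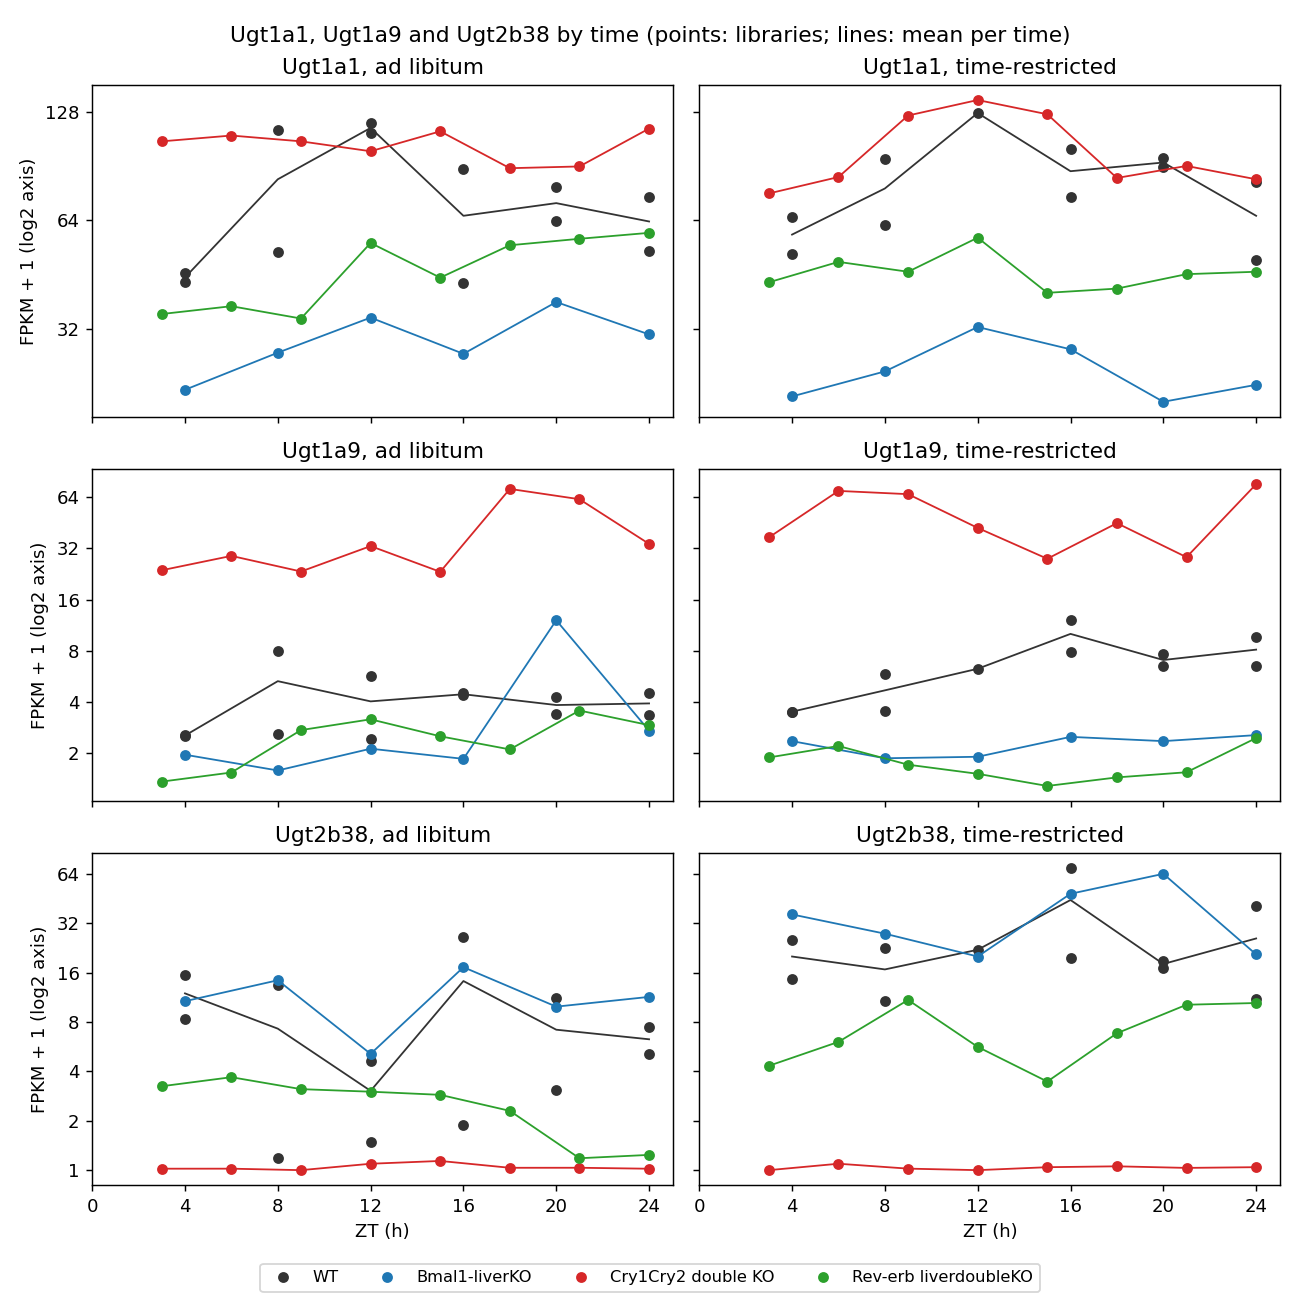
FPKM + 1 (log2 axis) of Ugt1a1, Ugt1a9 and Ugt2b38 against ZT in hours, ad libitum on the left and time-restricted on the right; points are libraries coloured by genotype and lines join the mean per time. Ugt1a1 in Bmal1-liverKO stays at 19.1 to 37.0 FPKM at all times, below WT at 41.9 to 126, and Ugt2b38 in the Cry1Cry2 double KO stays at or below 0.138.

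Ugt2b38 was almost undetected in Cry1Cry2 double KO liver. Its 8 ad libitum libraries held 11 recovered reads in all and its 8 time-restricted libraries held 9, with 0 to 4 in each library, which is at most 0.138 FPKM. WT libraries ranged from 0.193 to 25.6 FPKM, median 5.29, ad libitum and from 9.73 to 68.3, median 18.6, under restriction. No double KO library reached the lowest WT library. On the log2(FPKM + 1) scale, which understates change at low levels, Ugt2b38 fell by 2.42 ± 0.38 (limma, adjusted p = 1.10e-06) ad libitum and by 4.38 ± 0.39 (adjusted p = 5.55e-13) under restriction, with corrected differences of -2.32 and -3.69. Rev-erb liverdoubleKO libraries held 0.182 to 2.69 FPKM of it, median 1.94, ad libitum and 2.47 to 9.92, median 5.45, under restriction. It fell there by 1.22 ± 0.38 (limma, adjusted p = 0.00772) and by 1.68 ± 0.39 (adjusted p = 3.87e-04), and by 1.18 and 1.13 corrected. Against WT libraries of number 1 only, the ad libitum difference was -0.51 (adjusted p = 0.160), and against those of number 2 it was -1.93 (adjusted p = 4.69e-05). In Bmal1-liverKO Ugt2b38 was 4.12 to 16.3 FPKM ad libitum and 19.1 to 63.2 under restriction, with differences from WT of 0.94 (adjusted p = 0.0878) and 0.62 (adjusted p = 0.250), and 0.73 and 0.69 corrected. Without the 3 libraries of unusual scaling the ad libitum difference was 1.23 (adjusted p = 0.00605). It was 1.65 (adjusted p = 8.93e-05) against WT libraries of number 1 and 0.23 (adjusted p = 0.650) against those of number 2. Under restriction it was 0.95 (adjusted p = 0.0327) against number 1 and 0.49 (adjusted p = 0.277) against number 2.

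Within WT ad libitum, Ugt2b38 spread widely between libraries of one time. At ZT8 the libraries gave 0.193 and 12.4 FPKM, at ZT12 0.481 and 3.61, and at ZT16 0.885 and 25.6. The low library of these 3 pairs was number 1, whereas at ZT20 it was number 2 (10.3 and 2.08 FPKM, with Cyp2b9 at 2.4 and 3.002). In the 3 low libraries of number 1, Cyp2b9, a cytochrome P450 more abundant in female liver, was at 163, 39.4 and 13.1 FPKM, against at most 3.002 in the other 9. Cyp2b9 was chosen after its values were seen. It was 28.2 to 192 FPKM in the 16 double KO libraries, where Ugt2b38 was almost undetected. In the Rev-erb liverdoubleKO ad libitum, Cyp2b9 was 156 and 158 FPKM at ZT21 and ZT24, the libraries with the least Ugt2b38 (0.182 and 0.239). In the WT time-restricted ZT8 library of number 1, Cyp2b9 was 82.4 while Ugt2b38 was 9.73, the lowest of its group but above the ad libitum median, and the Rev-erb liverdoubleKO ad libitum ZT12 library had 75.5 and 2.01. In Bmal1-liverKO Cyp2b9 was at most 3.14. Of 11 male-biased liver genes tested, 2 were higher and 2 lower in the double KO ad libitum, and 0 higher and 6 lower under restriction; of 5 female-biased genes tested, 2 were higher under each feeding. Among Rev-erb liverdoubleKO libraries ad libitum, 5 of 5 female-biased genes were higher, and of the 11 male-biased genes 1 was higher and 3 were lower; under restriction 1 of 5 female-biased genes was higher, and 1 male-biased gene was higher and 2 lower. Of all genes, 24.8% were higher and 30.7% lower in the double KO ad libitum and 33.7% and 27.8% under restriction, and 20.8% and 23.9%, then 28.3% and 24.2%, in the Rev-erb liverdoubleKO. In Bmal1-liverKO ad libitum 4 male-biased genes were higher and 0 lower, and 0 female-biased genes were higher and 1 lower (14.8% and 10.1% of all genes). Under restriction 1 male-biased gene was higher and 1 lower there, and 0 female-biased genes were higher and 1 lower (27.8% and 11.3% of all genes). By feeding, 5 of the 11 male-biased genes were higher and 0 lower under restriction in WT (28.6% and 35.4% of all genes). None of the 5 female-biased genes passed there. In the Rev-erb liverdoubleKO 4 male-biased genes were higher (1.08% of all genes) and 4 female-biased genes lower (2.25%), with none the other way. Neither list had a gene that passed by feeding in Bmal1-liverKO or the double KO. The part of Cyp2b9 and these lists in the Ugt2b38 results was not tested.

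**Figure D3:**
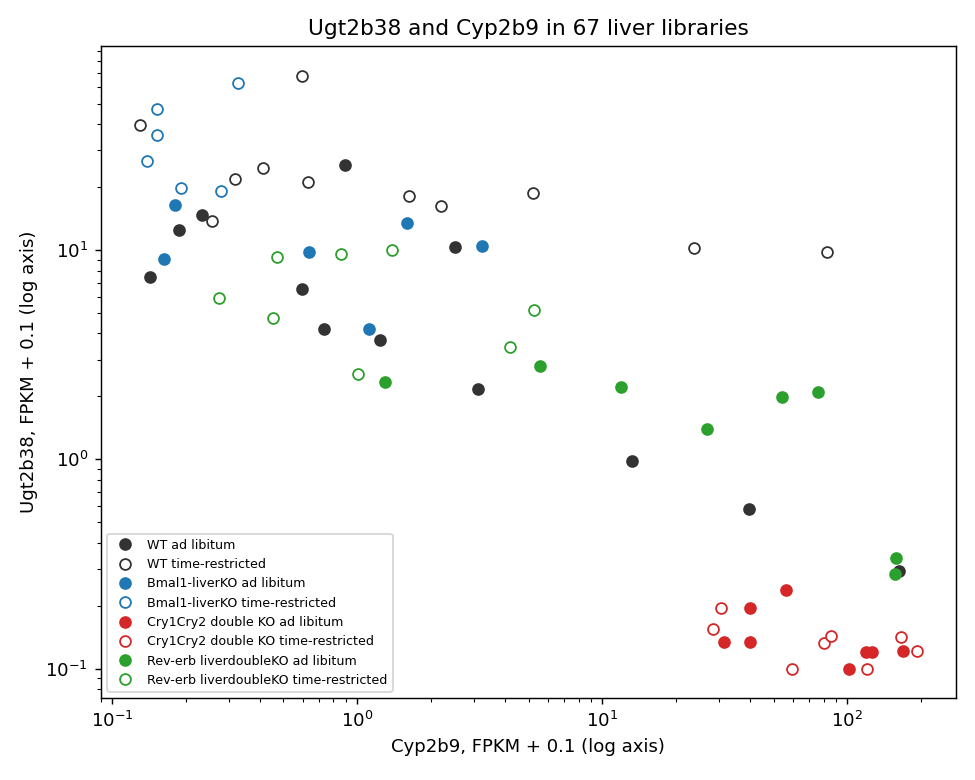
Ugt2b38 against Cyp2b9 (both FPKM + 0.1, log axes) in the 67 libraries, coloured by genotype, filled for ad libitum and open for time-restricted. The 16 Cry1Cry2 double KO libraries lie at the lower right, with Cyp2b9 at 28.2 to 192 FPKM and Ugt2b38 at 0.138 or below.

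The remaining members differed less, and most of their differences from WT lay under restricted feeding. In the Cry1Cry2 double KO under restriction, Ugt3a2 (88.9 to 162 FPKM against 179 to 336 in WT), Ugt2b5 (79.8 to 294 against 326 to 840) and Ugt2b36 (119 to 383 against 392 to 1500) did not overlap WT. In this comparison 61.5% of all genes passed, and the share of all genes without overlap was not counted. Ugt3a2 fell by 0.92 ± 0.10 on the log2 scale (limma, adjusted p = 1.47e-10), Ugt2b5 by 1.15 ± 0.17 (adjusted p = 1.18e-07) and Ugt2b36 by 1.04 ± 0.21 (adjusted p = 4.12e-05). Corrected, the same differences were -0.41, -0.47 and -0.42, and each still passed. Ugt2a3 and Ugt2b1 fell by 1.01 and 1.11, and by 0.40 and 0.52 corrected, while Ugt2b34 and Ugt2b35 fell by 0.71 and 0.85 but did not pass corrected (-0.27 and -0.31, adjusted p = 0.0520 and 0.125) or against WT libraries of number 1 only (-0.32 and -0.34, adjusted p = 0.0838 and 0.208). The double KO library at ZT3 held the lowest sum of members of all 67 libraries, 535 FPKM, beside 41900 FPKM of Saa1, an acute-phase gene; its part was not tested, and without it and the other libraries of unusual scaling the falls of Ugt3a2, Ugt2b5 and Ugt2b36 were 0.82, 0.87 and 0.73, and those of Ugt2b1 and Ugt2b35 were 0.70 and 0.55.

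In the Rev-erb liverdoubleKO under restriction, Ugt3a2 was 113 to 156 FPKM, below all WT libraries of that feeding, and fell by 0.73 ± 0.10 (limma, adjusted p = 1.03e-07; 0.32 corrected, adjusted p = 0.00238). Ugt2a3, Ugt2b5, Ugt2b34, Ugt2b35 and Ugt2b36 fell by 0.51 to 0.66, and none of these 5 passed corrected, with differences of -0.16 to -0.03. None of the 5 passed against WT libraries of number 1 only either (-0.30 to -0.00), and all 5 did against those of number 2 (-0.94 to -0.78). Ugt2b35 was the closest to the threshold, and its call was lost on leaving out any of 13 single libraries (adjusted p up to 0.120). Without the 3 libraries of unusual scaling it did not pass either (-0.41, adjusted p = 0.0584). Ugt2b1 did not pass (-0.49, adjusted p = 0.0643; -0.03 corrected), but did without those libraries (-0.42, adjusted p = 0.0411). Ad libitum, the corrected fit had Ugt2b36 (0.49, adjusted p = 0.00110), Ugt2b5 (0.44, adjusted p = 0.00460) and Ugt2a3 (0.36, adjusted p = 0.0282) higher in this mutant, which the uncorrected fit did not (adjusted p = 0.0991, 0.0580 and 0.181). Without the 3 libraries of unusual scaling these 3 passed uncorrected as well (0.57, 0.46 and 0.36, adjusted p = 7.77e-04, 0.00252 and 0.0134), and so did Ugt2b35 (0.56, adjusted p = 0.00924).

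In Bmal1-liverKO ad libitum, Ugt2b1 (214 to 386 FPKM against 95.5 to 321 in WT), Ugt2b35 (57.4 to 112 against 31.5 to 87.5) and Ugt3a2 (131 to 215 against 106 to 183) were higher, with overlap. Their log2 differences were 0.75 ± 0.25 (limma, adjusted p = 0.0197), 0.68 ± 0.23 (adjusted p = 0.0259) and 0.41 ± 0.11 (adjusted p = 0.00343). None of the 3 passed corrected, where Ugt2b36 did (0.41, adjusted p = 0.0208). Ugt2b36 and Ugt2b5 also passed uncorrected without the 3 libraries of unusual scaling (0.73 and 0.51, adjusted p = 2.01e-04 and 0.00288). Ugt2b1 was lost without the Bmal1-liverKO library at ZT4 or at ZT16, and Ugt2b35 without any of 4 Bmal1-liverKO libraries (ZT4, ZT12, ZT16 or ZT20), with adjusted p up to 0.0981. Against WT libraries of number 2 only, neither passed (adjusted p = 0.149 and 0.0979). Under restriction Ugt2b34 was lower (113 to 204 against 93.6 to 388 FPKM; -0.42, adjusted p = 0.0397), a call that was lost corrected (-0.24), against WT libraries of number 1 only (-0.04) and without any of 9 single libraries (adjusted p up to 0.145). In the double KO ad libitum, Ugt2b1 (216 to 396 FPKM) and Ugt2b34 (110 to 171) were higher by 0.55 (limma, adjusted p = 0.0342) and 0.38 (adjusted p = 0.0267). Ugt2b1 held corrected (0.55, adjusted p = 0.0251) but not without any of 8 single libraries (adjusted p up to 0.0806), and Ugt2b34 did not hold corrected (0.17, adjusted p = 0.205). Neither held against WT libraries of number 2 only (0.31 and 0.21).

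**Figure D4:**
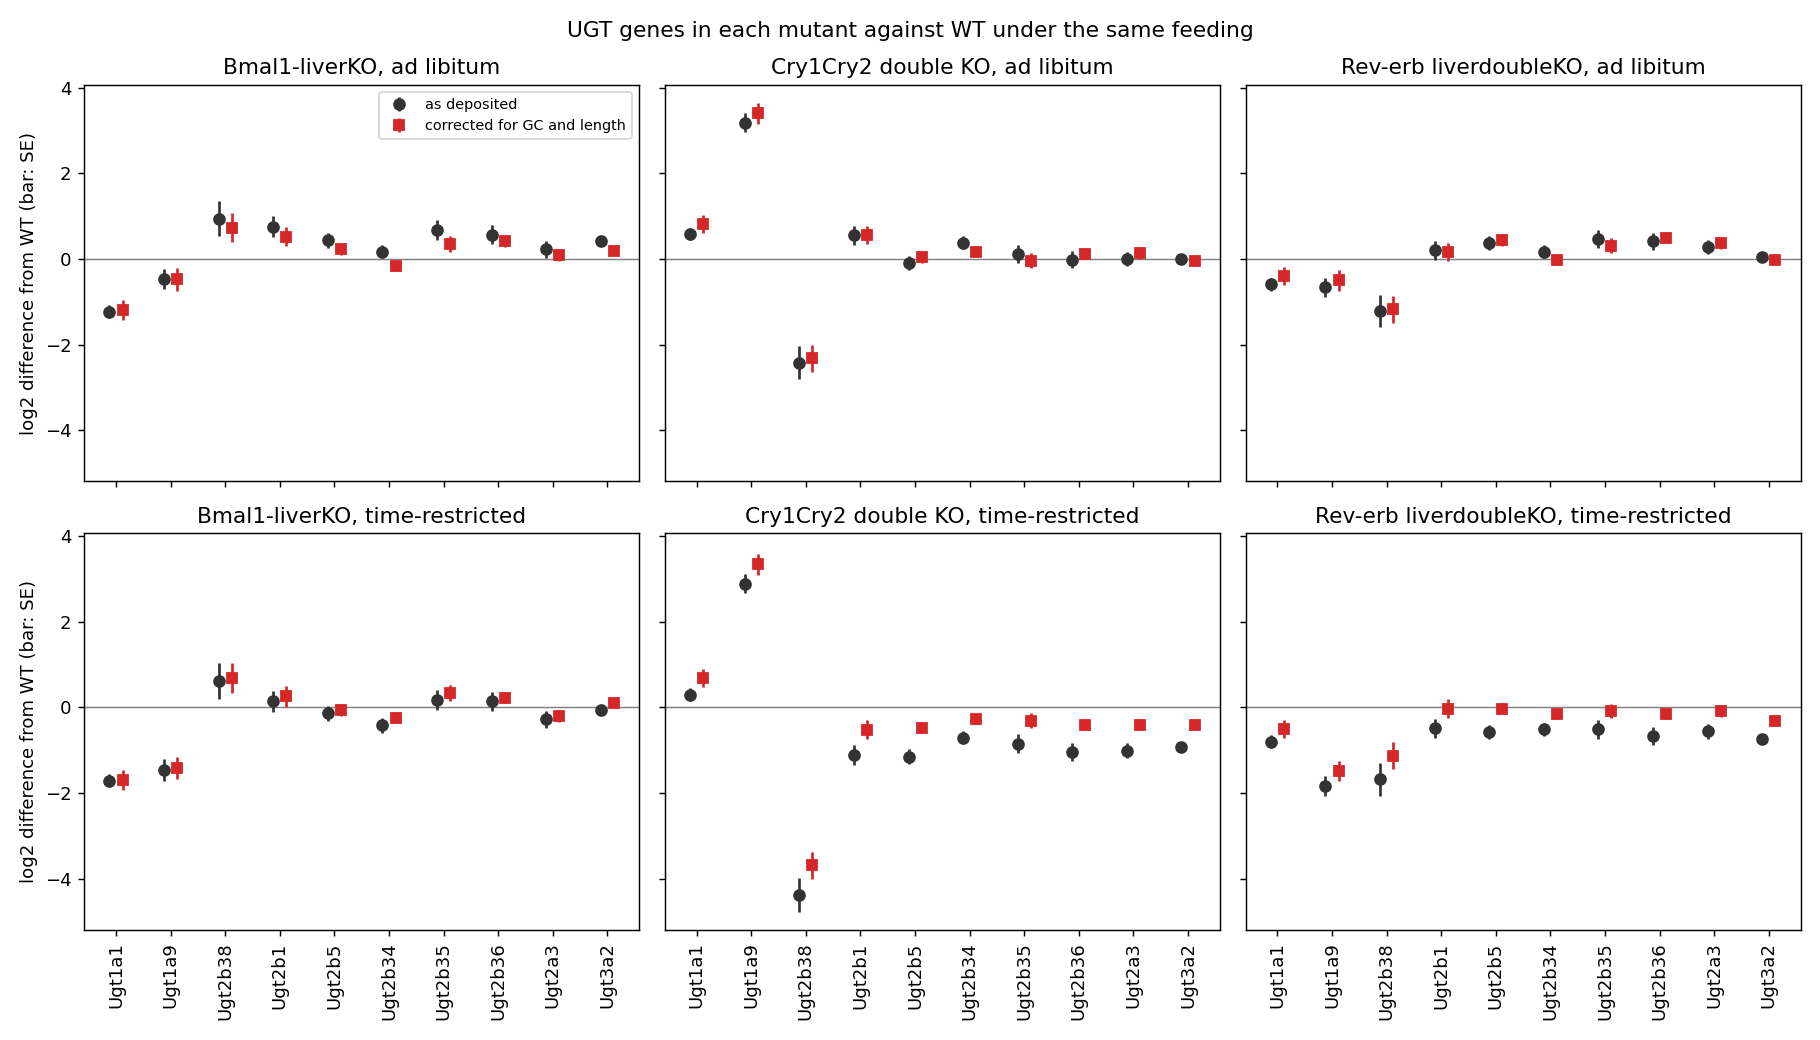
Log2 difference from WT under the same feeding for the 10 UGT genes in each mutant (ad libitum above, time-restricted below); black circles are values as deposited, red squares are corrected for GC and length, and bars are SE. Ugt1a9 at 3.18 and 2.89 and Ugt2b38 at -2.42 and -4.38 in the Cry1Cry2 double KO stand apart, and most other time-restricted values move toward 0 once corrected.

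Time restriction was then compared with ad libitum feeding within each genotype. In WT, 9 of the 10 members were higher under restriction (28.6% of all genes tested were) and none of the 10 was lower (35.4% of all genes were). Corrected, 4 were higher (18.8% of all genes): Ugt2b38, Ugt2b1, Ugt2b5 and Ugt3a2. Ugt2b38 had the largest difference, from a median of 5.29 to 18.6 FPKM, a rise of 1.94 ± 0.35 on the log2 scale (limma, adjusted p = 4.57e-06) and of 1.39 ± 0.29 corrected (adjusted p = 1.36e-04). Its mean was higher under restriction at 6 of 6 times, and it rose by 2.32 among libraries of number 1 and by 1.36 among those of number 2. Ugt2b1 ranged from 95.5 to 321 FPKM, median 189, ad libitum and from 226 to 845, median 355, under restriction, where 7 of 11 libraries lay above all 12 ad libitum libraries. It rose by 1.12 ± 0.21 (limma, adjusted p = 7.22e-06), and by 0.56 ± 0.19 corrected (adjusted p = 0.0206).

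Of the other members, Ugt3a2 ranged from 106 to 183 FPKM ad libitum and from 179 to 336 under restriction, with 9 of 11 above all ad libitum libraries, and rose by 0.74 ± 0.09 (limma, adjusted p = 1.53e-09), but by 0.20 corrected (adjusted p = 0.0438). Ugt2b5 rose by 0.84 ± 0.15 and by 0.32 corrected (adjusted p = 0.0258). Ugt2b34, Ugt2b35, Ugt2b36, Ugt2a3 and Ugt1a9 rose by 0.70 to 0.84 as deposited, and their corrected differences of 0.15 to 0.50 did not pass. Among libraries of number 1 only, Ugt1a9 (0.49, adjusted p = 0.226) and Ugt2b35 (0.51, adjusted p = 0.0941) did not pass as deposited. Ugt1a1 did not pass in either fit (0.21, adjusted p = 0.172; 0.08 corrected). The slope with GC differed between the WT feeding groups most among libraries of number 2, and the median difference of the 10 members was 0.77 as deposited and 0.26 corrected, against -0.03 and 0.01 for all genes. Between WT ad libitum and time-restricted libraries, summed stellate cell markers went from a median of 119 FPKM (107 to 208) to 177 (150 to 288), and bile duct markers from 39.5 (23.9 to 83.4) to 66.2 (40.3 to 180). Erythroid markers went from 449 (130 to 2830) to 206 (118 to 771), adipocyte markers from 14.9 (0.487 to 45.5) to 0.926 (0.147 to 6.75), and hepatocyte markers from 74500 to 69300. Their part in the feeding results was not tested.

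**Figure D5:**
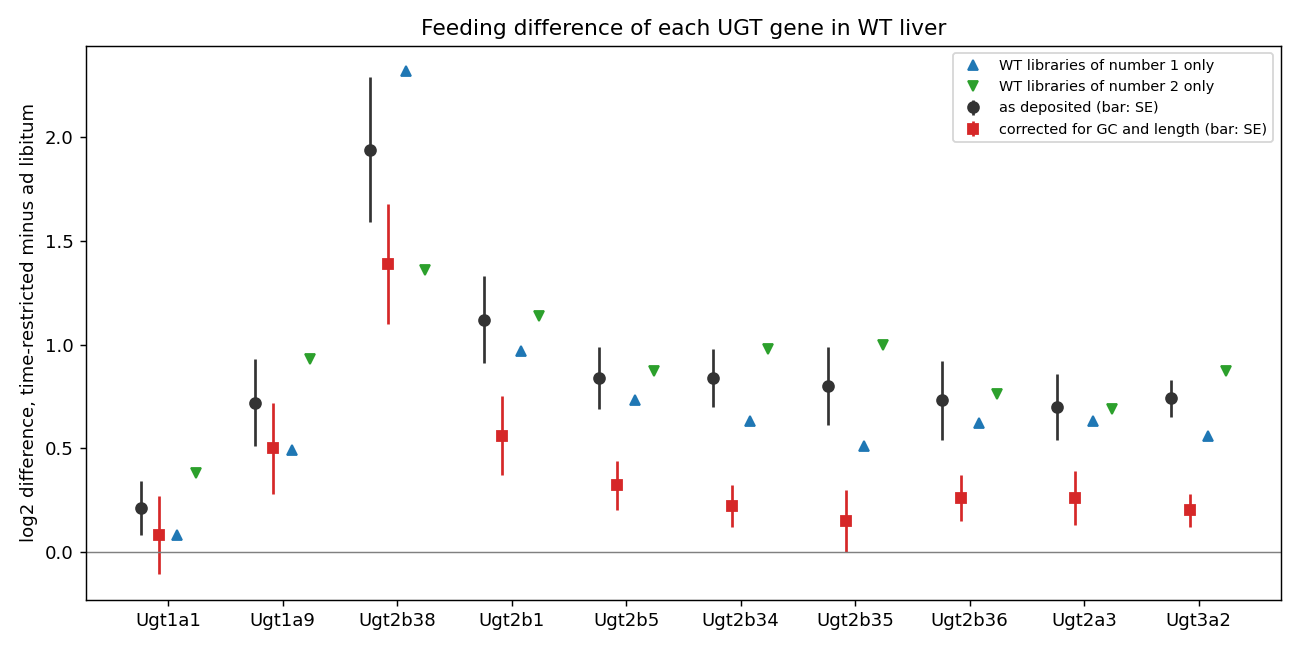
Log2 difference, time-restricted minus ad libitum, of the 10 UGT genes in WT liver: black circles as deposited and red squares corrected for GC and length (bars are SE), and triangles from WT libraries of number 1 or number 2 only. Ugt2b38 is highest at 1.94 (1.39 corrected), and the corrected values of the other 9 genes lie between 0.08 and 0.56.

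In the mutants few members passed by feeding. None of the 10 passed in Bmal1-liverKO (0.0402% of all genes did) or in the Cry1Cry2 double KO (0.0201% of all genes), and no corrected member did. At an unadjusted p under 0.05 in limma, 2 members did in Bmal1-liverKO (1017 of 9958 genes) and 1 in the double KO (564 of 9958). The members' median difference was 0.27 and -0.2 in these mutants (0.03 and 0.02 for all genes), and 0.09 and -0.17 corrected. Means in Bmal1-liverKO were higher under restriction at 6 of 6 times for Ugt2b34, Ugt2b35, Ugt2b38 and Ugt3a2. They were at 5 of 6 for Ugt2a3, Ugt2b1, Ugt2b5 and Ugt2b36, 3 for Ugt1a9 and 1 for Ugt1a1. In the double KO they were at 2 to 6 of 8. These time counts were not made for all genes. Only 1 member passed in the Rev-erb liverdoubleKO, Ugt2b38, which was higher (1.08% of all genes were). It went from 0.182 to 2.69 FPKM ad libitum to 2.47 to 9.92 under restriction, higher at 8 of 8 times, a rise of 1.48 ± 0.41 (limma, adjusted p = 0.0315) and of 1.44 corrected (adjusted p = 0.00727). That call was lost with no filter on low values and on leaving out any of 9 single Rev-erb liverdoubleKO libraries (ZT9, ZT12, ZT21 or ZT24 of either feeding, or ZT18 under restriction; adjusted p up to 0.103). In Bmal1-liverKO Ugt2b38 was 4.12 to 16.3 FPKM ad libitum and 19.1 to 63.2 under restriction, without overlap, a difference of 1.62 ± 0.48 that did not pass (limma, adjusted p = 0.208); without the 3 libraries of unusual scaling, none of which is from this mutant, the adjusted p was 0.0301. In the double KO Ugt2b38 was too low under both feedings to compare. Whether the feeding difference was equal in the 4 genotypes was tested directly: it was not for 9 members, all but Ugt1a1 (47.1% of all genes), and corrected for 4, Ugt1a9, Ugt2b1, Ugt2b36 and Ugt2b38 (23.7% of all genes). For Ugt2b38 this test includes the double KO, whose difference of -0.01 lies at the floor and cannot show a feeding effect. Its differences were 1.94 in WT, 1.62 in Bmal1-liverKO and 1.48 in the Rev-erb liverdoubleKO, and equality among these alone was not tested.

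Daily rhythm, tested as a 24 h cosine within each group, was found in few members. In WT ad libitum 2 passed, Ugt1a1 and Ugt2a3 (29.7% of all genes did). Ugt1a1 was 42.2 and 44.7 FPKM at ZT4 and 118 and 111 at ZT12, with a fitted peak at ZT13.0 and a peak-to-trough range of 0.82 on the log2 scale (limma, adjusted p = 0.0432; corrected 0.0828). Ugt2a3 was 75.8 and 154 FPKM at ZT4 and 165 and 343 at ZT16, with a peak at ZT15.2 and a range of 1.12 (limma, adjusted p = 0.0183; corrected 0.0129). Both are sensitive to single libraries: Ugt1a1 lost its call without any of 7 (adjusted p up to 0.162) and Ugt2a3 without ZT4 number 1 or ZT16 number 2 (adjusted p up to 0.127). In WT under restriction 1 passed, Ugt2b34 (20% of all genes), at 128 and 206 FPKM at ZT4 and 189 and 388 at ZT16, with a peak at ZT14.7 and a range of 1.16 (limma, adjusted p = 0.00938; corrected 0.0514; without ZT16 number 2, 0.0909). In the Cry1Cry2 double KO under restriction 1 passed, Ugt2a3 (7.23% of all genes), with 29.1 FPKM at ZT3 and 95.0 to 178 at the other 7 times (limma, adjusted p = 0.0252), and without the ZT3 library the adjusted p was 0.724. Without the 3 libraries of unusual scaling, Ugt2b38 in WT ad libitum (adjusted p = 0.0217) and Ugt1a1 in WT under restriction (adjusted p = 0.0101) passed as well. None of the 10 passed in Bmal1-liverKO ad libitum (0.0301% of all genes) or under restriction (0.512%), in the double KO ad libitum (0.0502%), or in the Rev-erb liverdoubleKO ad libitum (0.0301%) or under restriction (3.95%). At an unadjusted p under 0.05 in limma, 1, 0, 1, 0 and 1 members did in these 5 groups in that order. Of all 9958 genes, 531, 961, 291, 169 and 1550 did. Mutant groups had 1 library per time, and a difference in rhythm between genotypes was not tested.

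Of 12 other UGT genes in the table, 4 reached a mean of 1 FPKM and were tested. Of these, 2 were higher under restriction in WT (28.6% of all genes were), and 1 was corrected (18.8% of all genes), Ugt2b37. Ugt3a1 rose by 0.45 (limma, adjusted p = 0.00506), but by 0.09 corrected (adjusted p = 0.644). Ugt2b37, which lies between Ugt2b5 and Ugt2a3 on chromosome 5, was 0.192 to 13.5 FPKM in WT ad libitum and 1.37 to 29.7 under restriction, and rose by 1.36 (limma, adjusted p = 3.12e-04; 0.80 corrected, adjusted p = 0.0132). Unlike Ugt2b38 it was measured in all Cry1Cry2 double KO libraries, at 0.127 to 8.04 FPKM. Under restriction it fell there by 1.51 (0.81 corrected, adjusted p = 0.0175) and in the Rev-erb liverdoubleKO by 1.67 (1.11 corrected). Ugt3a1, beside Ugt3a2 on chromosome 15, fell in the double KO by 0.86 ad libitum and by 1.74 under restriction (0.77 and 1.27 corrected), and in the Rev-erb liverdoubleKO under restriction by 0.87 (0.51 corrected), each passing in both fits. Ugt1a5 fell by 1.23 in Bmal1-liverKO under restriction (1.20 corrected, adjusted p = 0.0143). Ugt1a10, too low to be tested, was 0.345 to 1.35 FPKM in the 16 double KO libraries and at most 0.260 in WT. Of the 50-base windows of Ugt1a9, 61.8% occur in it, but Ugt1a9 shares exons with every other Ugt1a gene too. The other untested UGT genes are not described. Among the tested ones, Ugt1a6b fell in the double KO under restriction by 0.63 (limma, adjusted p = 0.00161), and by 0.28 corrected (adjusted p = 0.32). Ugt1a5 did not pass in the double KO under either feeding.

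The wider glucuronidation pathway was followed with 31 genes for the supply of UDP-glucuronic acid, export, release of glucuronides, regulators and sulfotransferases that share substrates, of which 29 were tested. In WT, 11 were higher and 4 lower under restriction (28.6% and 35.4% of all genes), and 4 were higher corrected (18.8% of all genes). Among them Slco1a1, an organic anion uptake carrier, rose by 1.29 as deposited, and its corrected difference of 0.59 did not pass (adjusted p = 0.110). None of the 29 passed by feeding in Bmal1-liverKO or in the double KO. In the Rev-erb liverdoubleKO 1 passed, Nr1i3 (CAR, a nuclear receptor that induces UGT genes), which fell by 0.87 (0.78 corrected). In Bmal1-liverKO 4 were higher and 6 lower ad libitum, and 1 higher and 8 lower under restriction. Corrected, 2 were higher and 6 lower ad libitum, and 1 higher and 12 lower under restriction. Ces1e, which holds the glucuronide-cleaving enzyme in the endoplasmic reticulum, fell there by 1.80 and 2.49 (corrected differences of -1.71 and -2.56), and Sult1a1, a phenol sulfotransferase, by 1.17 and 1.4 (1.05 and 1.49 corrected). Nr1i3 fell by 0.98 ad libitum (0.90 corrected).

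In the Cry1Cry2 double KO 8 pathway genes were higher and 5 lower ad libitum, and 6 higher and 10 lower under restriction. Corrected, 10 were higher and 5 lower ad libitum, and 4 higher and 9 lower under restriction. Sult5a1, a sulfotransferase, fell by 1.66 and 1.33 (1.54 and 1.57 corrected). Ces1e rose by 0.94 ad libitum (1.24 corrected), and Slc35d1, which carries UDP-glucuronic acid into the endoplasmic reticulum, rose by 0.81 (0.57 corrected). Under restriction Sult1b1, another sulfotransferase, fell by 1.48 (0.83 corrected). Rev-erb liverdoubleKO liver had 5 pathway genes higher and 5 lower ad libitum, and 2 higher and 12 lower under restriction. Corrected, 6 were higher and 5 lower ad libitum, and 2 higher and 7 lower under restriction. Ugp2, which makes the UDP-glucose from which UDP-glucuronic acid is formed, rose by 1.32 ad libitum (1.21 corrected). Ces1e fell by 0.90 and 0.95 (0.68 and 0.73 corrected). The shares of all genes that passed in these fits are those given above for each mutant.

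Across the 67 libraries the members fell into unlike patterns of log2 level; these correlations share libraries, groups and GC content and are given as descriptions. Ugt2b5 and Ugt2b36 moved most alike (r = 0.93), followed by Ugt2a3 with Ugt2b5 (0.89) and with Ugt2b36 (0.88). Ugt1a1 and Ugt1a9 had r = 0.71, and each had r = -0.59 with Ugt2b38. Of 5117 genes outside the family, those most like each member were Slc47a1 (0.89) and Mme (0.88) for Ugt1a1, Cyp3a11 and Cyp39a1 (both 0.87) for Ugt1a9, and C9 (0.86) and Mup20 (0.85) for Ugt2b38. Etfa (0.92) and Akr1c6 (0.91) were most like Ugt2b36, Akr1c6 (0.89) and Arl6ip1 (0.88) most like Ugt2b5, and Otc (0.90) and Akr1c14 (0.88) most like Ugt2a3. For Ugt2b34 they were Akr1c14 (0.84) and Xkr9 (0.83), and for Ugt2b1 Acadsb (0.83) and Sult2a8 (0.81). Ugt3a2 was most like Ipp (0.87) and Ormdl1 (0.84), and Ugt2b35 most like Ap5m1 (0.79) and Ccdc50 (0.76).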

How the data were processed

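Mouse liver RNA was extracted with RNeasy Mini columns and made into 67 libraries with a stranded TruSeq kit from 1 ug of RNA, per the labels' protocols. The authors deposited 1 table of FPKM values; STAR, featureCounts, DESeq2 and GRCm38 are named without versions in the submitters' processing notes, and the strand setting and annotation are not given in the sources used here. Depth was recovered from the steps of low values: 85.4 to 88.8% of low values per library came out whole within 0.1 reads. Groups came from the labels.

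The 9958 genes whose mean FPKM over all libraries was 1 or more were fitted as log2(FPKM + 1) with limma 3.58.1 in R 4.3.3, with a level and a 24 h cosine and sine per group, 43 residual degrees of freedom and Benjamini-Hochberg adjustment (threshold 0.05). Fold changes are on that scale. The corrected fit removed, per library, splines of exon GC content and length with 5 degrees of freedom, for 9581 genes with both; the other genes were kept as they were. Other settings tried were a pseudocount of 0.1, no filter, median-of-ratios scaling, only the groups compared, a replicate block and each library left out. WT libraries by number, and libraries of unusual scaling left out, were added after seeing the data. The test was checked on simulated data. The named genes were all 10 members, up to 6 per list of those that passed with the largest difference, and the 2 genes most like each member. Of the pathway list, 1 gene is counted but not reported here. Members and lists were chosen with earlier results of these data known.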

Additional observations from a re-analysis of the deposited data

Results flagged for a closer look

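Libraries stood apart from their group in 6 of the 60 sets of member and group looked at (groups of 4 to 10 libraries, by the gap to the nearest library relative to the range), where chance flags about 1 in 20. In Bmal1-liverKO ad libitum the ZT20 library held 3 of them, with Ugt1a9 at 11.1 FPKM, Ugt2b34 at 149 FPKM (both the highest of the 6) and Ugt3a2 at 131 FPKM (the lowest). In the Cry1Cry2 double KO, Ugt2b1 was 396 FPKM at ZT12 ad libitum, the highest of 8, and Ugt2b36 was 119 FPKM at ZT3 under restriction, the lowest of 8. In the Rev-erb liverdoubleKO under restriction Ugt2a3 was 86.6 FPKM at ZT18, the lowest of 8, in a library with Saa1 at 16120 FPKM. The part of Saa1 was not tested.

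The restricted minus ad libitum difference was not equal in the 4 genotypes for 9 members by the interaction test in limma (47.1% of all genes). The adjusted p-values were 1.56e-06 for Ugt3a2, 3.57e-04 for Ugt2b34, 4.27e-04 for Ugt2b1, 4.65e-04 for Ugt2b5, 0.00216 for Ugt2a3, 0.00427 for Ugt2b36, 0.00595 for Ugt1a9, 0.0137 for Ugt2b35 and 0.0159 for Ugt2b38. The effects behind them are 0.70 to 1.94 (log2) in WT, with the mean higher under restriction at 5 of 6 times for Ugt1a9 and at 6 of 6 for the other 8, and -0.54 to 1.62 in the mutants. Corrected for GC and length, the test passed for Ugt2b36 (0.0109), Ugt1a9 (0.0351), Ugt2b1 (0.0372) and Ugt2b38 (0.0494), and for 23.7% of all genes. For Ugt2b38 the test includes the double KO, where it was too low under both feedings to compare.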

How the results depend on the processing

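No difference of a member changed direction while called under any setting. Of 100 member differences (feeding in 4 genotypes and 6 comparisons with WT), a pseudocount of 0.1 and median-of-ratios scaling changed 0 calls, no filter on low values ended 5, the replicate block for WT added 4, the GC and length correction ended 19 and added 5, and leaving out the libraries of unusual scaling ended 1 and added 9. The counts of members passing that moved by over 1.5 times are as follows, and causes were not tested. The share of all genes that passed can move with the setting too. For the GC and length correction the shares are given above, and for rhythm they were 32.6% in WT ad libitum and 14.6% in WT time-restricted. For the other settings and for single libraries left out they are not given, so these counts are not read as results about the members. With the GC and length correction: feeding in WT 4 (from 9), the difference in feeding between genotypes 4 (from 9), Bmal1-liverKO ad libitum 2 (from 4), Rev-erb liverdoubleKO time-restricted 4 (from 9), rhythm in WT ad libitum 1 (from 2) and time-restricted 0 (from 1). With no filter on low values: Rev-erb liverdoubleKO feeding 0 (from 1), the double KO ad libitum 3 (from 5) and rhythm in WT ad libitum 1. With only the groups compared: Rev-erb liverdoubleKO feeding 3, rhythm in WT ad libitum 0 and time-restricted 0, in the double KO time-restricted 0 (from 1) and in the Rev-erb liverdoubleKO time-restricted 1 (from 0). Median-of-ratios scaling gave 2 for rhythm in WT time-restricted.

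With WT libraries of number 1 only: Bmal1-liverKO ad libitum 7, Rev-erb liverdoubleKO ad libitum 6 (from 3), Rev-erb liverdoubleKO time-restricted 4 and rhythm in WT time-restricted 0. With number 2 only: Bmal1-liverKO ad libitum 2, the double KO ad libitum 3, Bmal1-liverKO time-restricted 5 (from 3) and rhythm in WT ad libitum 0. With the libraries of unusual scaling left out: Bmal1-liverKO feeding 1 (from 0), Bmal1-liverKO ad libitum 7, Rev-erb liverdoubleKO ad libitum 7, and rhythm in WT time-restricted 2 and in the double KO time-restricted 0. With the replicate block: Rev-erb liverdoubleKO ad libitum 5 and rhythm in WT time-restricted 2, and it lost no call. The block is a single offset between numbers 1 and 2 over all WT libraries. It does not model likeness of same-numbered libraries within a time. What the fit left over correlated between same-numbered WT libraries of a time across feedings at 0.314 to 0.863, except -0.154 and 0.0067 at ZT24. Between different-numbered libraries it correlated at -0.384 to 0.38 at ZT4, ZT8, ZT16 and ZT20. At ZT12 the value was 0.644, and at ZT24 the values were 0.309 and 0.285. The numbers were not taken to pair samples, and what libraries of a number share was not tested.

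Leaving out each library in turn gave 0 to 1 for Rev-erb liverdoubleKO feeding, 2 to 7 for Bmal1-liverKO ad libitum (7 without WT ad libitum ZT16 number 2, 2 without Bmal1-liverKO ad libitum ZT4 or ZT16), 3 to 5 for the double KO ad libitum (3 without WT ad libitum ZT16 number 1 or the double KO ad libitum ZT9 or ZT24), and 3 to 6 for the Rev-erb liverdoubleKO ad libitum (6 without WT ad libitum ZT16 number 2, 5 without the double KO time-restricted ZT3). Rhythm gave 0 to 3 in WT ad libitum (0 without ZT4 number 1), 1 to 2 in WT time-restricted and 0 to 4 in the double KO time-restricted (0 without ZT3 or ZT12, 4 without ZT6).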
